A study of Mus musculus with 4 samples.

Results

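Glutathione and thioredoxin carry the reducing power that the enzymes described here spend on hydrogen peroxide, lipid peroxides and electrophiles. The members were all rows whose symbol begins as a glutathione transferase, microsomal transferase, glutathione peroxidase, peroxiredoxin or thioredoxin gene, with the superoxide dismutase genes Sod1 to Sod3 and the single genes Cat, Gclc, Gclm, Gss, Gsr, Nqo1, Hmox1, Hmox2, Nfe2l2, Keap1 and Srxn1. This rule on symbols found 72 of the 23847 rows of the table. The rule uses symbols and no measured value.

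The libraries were made from ventricle tissue taken on postnatal day 21 from male mice on a C57BL/6 background. In 2 of them Cdk8, the cyclin-dependent kinase of the Mediator complex, was overexpressed with cardiac specificity (Cdk8Tg), and the other 2 were wild type (WT). The sources used here do not give the promoter of the transgene or the number of founder lines. Values were FPKM, which scale fragments to the length of the transcript and the size of the library. Cdk8 had 7309 and 8122 FPKM in Cdk8Tg, against 7.89 and 9.86 FPKM in WT, so the libraries matched their labels. The steps between low values put the depth at 12.3 and 11.8 M fragments (M, mega) in Cdk8Tg and at 14.1 and 13.9 M in WT, if each library was scaled by its own total. The labels do not say that each library came from its own animal, so p-values measure only how far these samples spread, and that spread may be technical.

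Glutathione is made by glutamate-cysteine ligase (Gclc and Gclm) and glutathione synthetase (Gss), and glutathione reductase (Gsr) returns its oxidised form to the reduced one with NADPH. Glutathione peroxidases spend it on peroxides, while peroxiredoxins draw on thioredoxin, which thioredoxin reductases recharge. The transcription factor Nfe2l2 (Nrf2), held back by Keap1, drives many of these genes through antioxidant response elements. In heart muscle, which is rich in mitochondria, superoxide from the respiratory chain is converted to hydrogen peroxide by Sod2 and then removed by Prdx3, Prdx5 and their partners Txn2 and Txnrd2.

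Several of the enzymes are selenoproteins: a TGA codon, elsewhere a stop, is read as selenocysteine in their active site. The coding sequences around that codon are shown because the peroxidases that follow divide by it, with the codon in capitals and read 5′ to 3′ on the coding strand (GENCODE annotation, GRCm38). Gpx7 and Gpx8 hold a cysteine codon at the aligned place.
Gpx1: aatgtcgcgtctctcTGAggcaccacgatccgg
Gpx3: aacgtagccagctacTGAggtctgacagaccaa
Gpx4: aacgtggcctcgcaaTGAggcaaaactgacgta
Gpx7: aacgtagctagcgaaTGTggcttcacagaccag
Gpx8: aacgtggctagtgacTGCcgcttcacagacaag
Txnrd1: ctccagtctggctgcTGAggt
Txnrd2: actgtgactggttgcTGAggc
Txnrd3: actcagaaaggctgcTGAggc
The codon is number 47 of 201 in Gpx1, 73 of 226 in Gpx3 and 129 of 253 in the longest form of Gpx4. In the 3 reductases it is the last codon but 1 before the stop, number 612 of 613 in Txnrd1, 526 of 527 in Txnrd2 and 614 of 615 in Txnrd3. On the chromosomes these codons lie at chr9:108339451-108339453 (Gpx1), chr11:54907256-54907258 (Gpx3), chr10:80054737-80054739 (Gpx4), chr10:82896037-82896039 (Txnrd1), chr16:18477772-18477774 (Txnrd2) and chr6:89674789-89674791 (Txnrd3), all on the + strand. The cysteine codons lie at chr4:108403430-108403432 (Gpx7) and chr13:113045661-113045663 (Gpx8), both on the - strand.

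Of the 72 members, 59 reached a mean of 1 FPKM over the 4 libraries and were tested with limma on log2(FPKM + 1), a scale that understates the change of low genes. Of these, 14 were higher in Cdk8Tg, 10 were lower and 35 were not called at a Benjamini-Hochberg adjusted p under 0.05 over all 11888 rows tested. That is 23.7% of tested members higher and 16.9% lower, against a background of 16.9% of all tested rows higher and 7.98% lower (24.9% called in either direction). The median log2 change of the tested members was 0.14, and that of all tested rows was 0.13. As the all-row median lies above 0 on the deposited scale, counts depend on how the libraries are scaled. Median-of-ratios scaling, which brings it to 0.00, gave 11 members higher and 11 lower, where 7.96% of all rows were higher and 11.7% lower. Setting the FPKM sums of all libraries equal, with an all-row median of 0.30, gave 28 members higher and 4 lower. On that scale 5552 of the 11888 rows were called in either direction. Quantile normalization gave 10 members higher and 6 lower, where 2031 of the 11888 rows were called in either direction. No called member changed sign under any of these scalings. The 2 groups did not overlap for 28 tested members that were higher and 16 that were lower in Cdk8Tg. Over all tested rows that held for 49.2% higher and 21.1% lower, 70.3% in all, so a lack of overlap alone was common.

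The authors' deposited table of Cuffdiff results called 7 members higher and 9 lower at q under 0.05, where 5.53% and 8.43% of the 12393 genes tested in it were called in each direction. Of the 14 members higher by limma, 6 were higher in it and 8 were not called (Gclm, Gss, Gpx4, Gpx7, Prdx1, Txndc5, Txndc12 and Gstm4). Of the 10 lower by limma, 8 were lower in it and 2 were not called (Txnrd2 and Gstz1). Gclc (higher) and Gsta3 (lower) were called in the authors' deposited table and not by limma.

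Single libraries weighed on these counts. With limma, 17 members were higher and 7 lower without Cdk8Tg replicate 1, and 8 and 6 without Cdk8Tg replicate 2. Without WT replicate 1 there were 5 higher and 2 lower, and without WT replicate 2 there were 2 and 2. Each of these fits leaves a group with 1 sample, whose spread is taken to equal that of the intact group, and calls over all rows were 2380, 1304, 628 and 287 in the same order, against 2958 with every library.

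The members not tested include Gpx2, Gpx5, Gpx6, Gstt4 and Txndc8, listed at 0 in every library. Gpx2-ps1, Gsta1, Gsta2, Gstm3, Gsto2, Mgst2, Prdx6b and Txndc2 stayed under a mean of 1 FPKM.

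**Figure D1:**
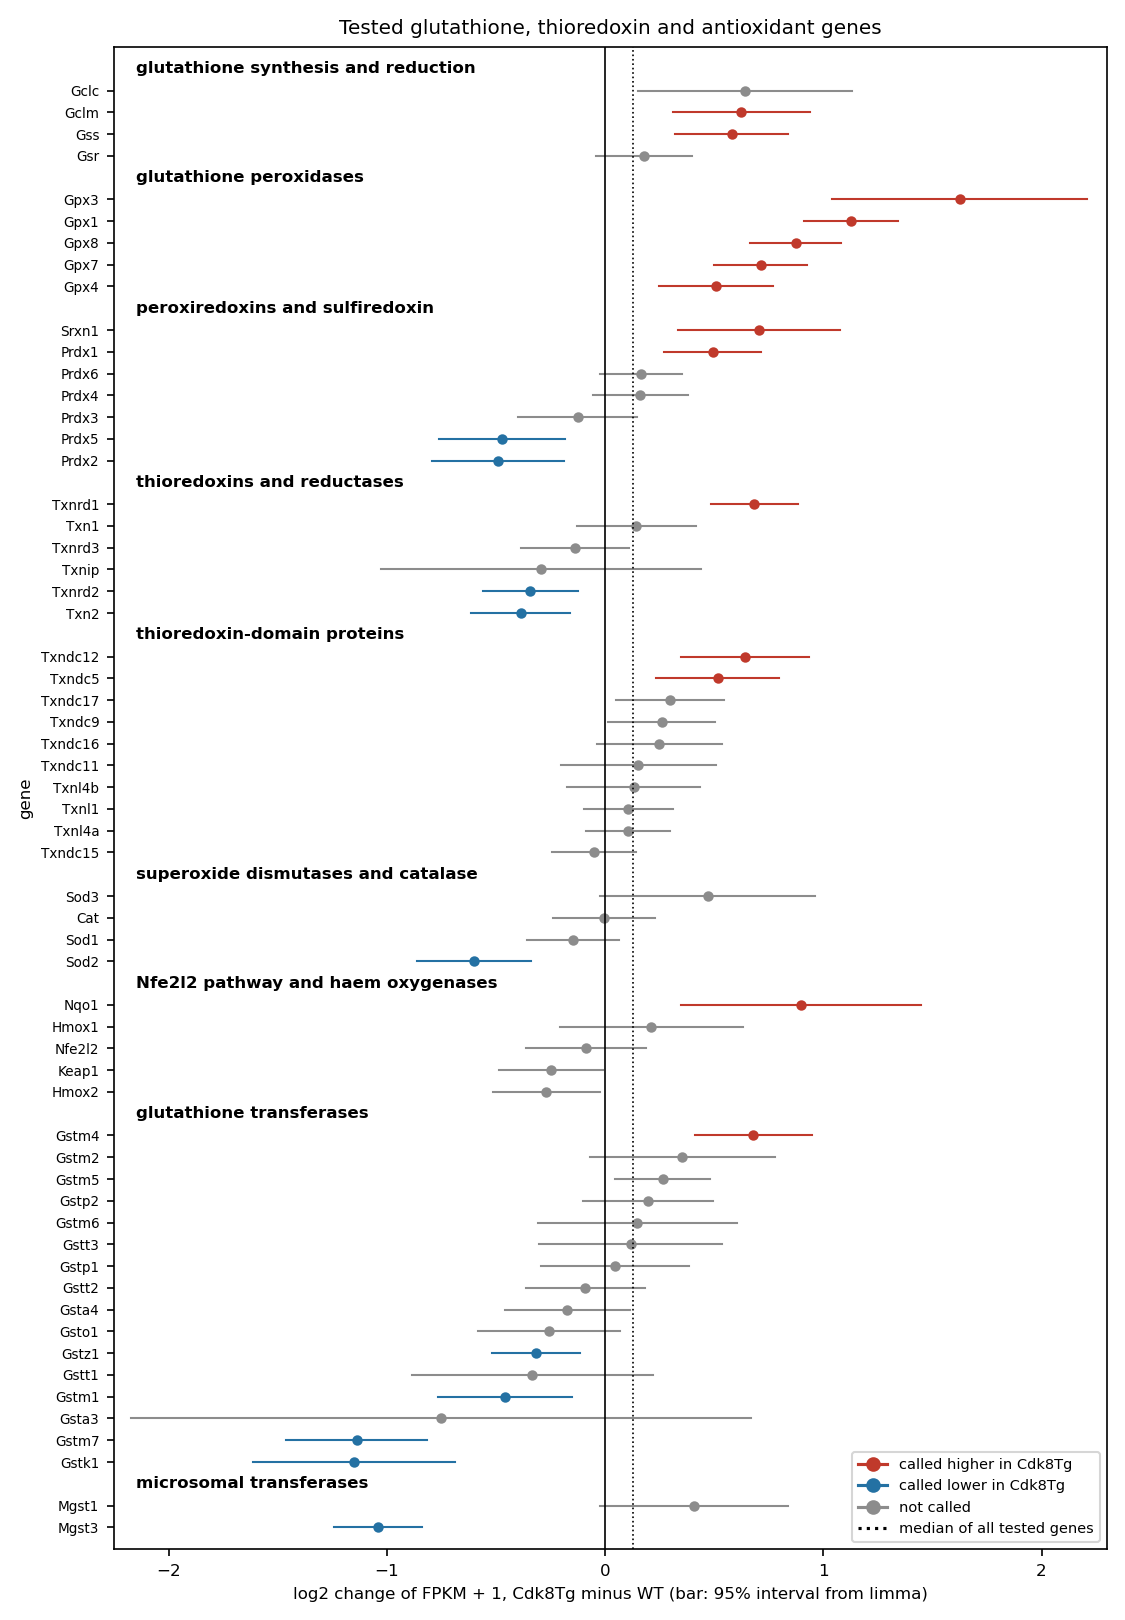
Log2 change of FPKM + 1 (Cdk8Tg minus WT) for the 59 tested members, grouped by role, as a point with its 95% interval from limma. All 5 peroxidases lie to the right of the dotted line at the median of all tested genes (0.13), and the bar reaching farthest left belongs to Gsta3, which was not called.

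Of the 3 genes of glutathione synthesis, Gclm and Gss were higher in the Cdk8Tg ventricles and Gclc was not called, nor was the gene of glutathione reductase. Gclm, the modifier subunit of glutamate-cysteine ligase, stood at 9.83 and 10.9 FPKM in Cdk8Tg, against 5.67 and 7.11 FPKM in WT. It rose by 0.62 ± 0.13 on the log2 scale (SE; limma, Benjamini-Hochberg adjusted p = 0.024). Gss, the synthetase that adds glycine, stood at 11.2 and 12.2 FPKM in Cdk8Tg, against 6.98 and 8.01 FPKM in WT, and rose by 0.58 ± 0.10 (limma adjusted p = 0.018). For both genes the Cdk8Tg libraries lay above both WT libraries. Gclc, the catalytic subunit, stood at 6.13 and 9.38 FPKM in Cdk8Tg, against 4.14 and 4.91 FPKM in WT. Its groups did not overlap either, but the Cdk8Tg libraries differed from each other by more than the WT ones. Its log2 change of 0.64 (95% interval 0.15 to 1.13) missed the threshold (limma adjusted p = 0.065). It passed without Cdk8Tg replicate 1 (log2 change 0.91; adjusted p = 0.020) and on the equal-sum scale (adjusted p = 0.026), but not without Cdk8Tg replicate 2 (log2 change 0.37; adjusted p = 0.16), WT replicate 1 (0.54; adjusted p = 0.22) or WT replicate 2 (0.74; adjusted p = 0.16). It missed it after median-of-ratios scaling (limma adjusted p = 0.12) and quantile normalization (adjusted p = 0.13) as well. In the authors' deposited table q was 0.042 for Gclc, 0.10 for Gclm and 0.16 for Gss. Gsr stood at 8.94 and 9.46 FPKM in Cdk8Tg and 7.86 and 8.15 FPKM in WT, a log2 change of 0.18 (95% interval -0.04 to 0.40; limma adjusted p = 0.18). The calls of Gclm and Gss were lost without Cdk8Tg replicate 2 (log2 changes 0.56 and 0.53; limma adjusted p = 0.088 and 0.069), without WT replicate 1 (0.48 and 0.49; adjusted p = 0.10 and 0.091) and on leaving out WT replicate 2 (0.76 and 0.67; adjusted p = 0.065 and 0.074). Gclm also missed the threshold with quantile normalization (0.48; limma adjusted p = 0.056). Exons of Gss overlap Acss2 on the opposite strand, and exons of Gclm overlap Gm17494 on the opposite strand and Gm6061 on its own. The sources used here do not give the strand setting of the authors' counting, so reads of such partners cannot be told apart.

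Every tested glutathione peroxidase gene was called higher, 5 of 5, whether it held a selenocysteine or a cysteine codon. Over all tested rows 16.9% were higher, and 7.96% after median-of-ratios scaling. Gpx2, Gpx2-ps1, Gpx5 and Gpx6 of the same family were not tested. Gpx3, the secreted peroxidase of plasma, stood at 171 and 284 FPKM in Cdk8Tg, against 72.1 and 69.5 FPKM in WT. Its means were 228 ± 80.4 FPKM in Cdk8Tg and 70.8 ± 1.81 FPKM in WT (SD, n = 2 each), a ratio of 3.22. The spread lay nearly all in Cdk8Tg, where replicate 2 was far above replicate 1, yet both exceeded WT. The log2 change was 1.62 ± 0.23 (SE; limma adjusted p = 0.012), larger than that of any other tested member. Gpx1, the cytosolic and mitochondrial peroxidase that reduces hydrogen peroxide, stood at 168 and 184 FPKM in Cdk8Tg, against 81.3 and 78.2 FPKM in WT. It rose by 1.13 ± 0.09 (limma adjusted p = 0.0037), and replicates differed little beside the distance between the groups. Gpx4, which reduces lipid peroxides within membranes, had the highest FPKM of the 5. It stood at 494 and 569 FPKM in Cdk8Tg, against 365 and 380 FPKM in WT, and rose by 0.51 ± 0.10 (limma adjusted p = 0.025). Of the 31-base stretches of Gpx4, 38.9% also occur in another annotated gene, chiefly the pseudogene Gpx4-ps2, so its level is uncertain.

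Gpx7 and Gpx8 are the peroxidases of the endoplasmic reticulum and use the cysteine shown above. Gpx8 stood at 39.5 and 42.5 FPKM in Cdk8Tg, against 21.5 and 22.4 FPKM in WT, and rose by 0.87 ± 0.08 (limma adjusted p = 0.0053). Gpx7 stood at 13.7 and 13.8 FPKM in Cdk8Tg, against 8.27 and 7.74 FPKM in WT, and rose by 0.71 ± 0.09 (limma adjusted p = 0.0079). Neither gene had overlapping groups. The summed level of the peroxidase members was 885 and 1093 FPKM in Cdk8Tg, against 548 and 557 FPKM in WT. They made up 21.0% and 24.4% of the summed FPKM of all members in Cdk8Tg, against 12.5% and 12.4% in WT, as the bars of summed FPKM by role show.

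Some calls in this family hung on a library or a scale. Gpx4 was no longer called after median-of-ratios scaling (log2 change 0.36; limma adjusted p = 0.063), without WT replicate 1 (0.48; adjusted p = 0.15) and on leaving out WT replicate 2 (0.54; adjusted p = 0.14). Gpx3 lost it without WT replicate 1 (1.65; limma adjusted p = 0.063) and WT replicate 2 (1.60; adjusted p = 0.081), and Gpx7 without WT replicate 2 (0.67; adjusted p = 0.065). Gpx4 and Gpx7 were not called in the authors' deposited table (q = 0.87 and 0.086). Without Cdk8Tg replicate 2, Gpx3 was still called, with a log2 change of 1.26 (limma adjusted p = 0.0065). Marker sums of several other cell types were highest in that same library, though not every marker was. The 6 adipocyte markers summed to 0.12 and 19.2 FPKM in Cdk8Tg replicates 1 and 2, and to 1.47 and 0.10 FPKM in WT. Adipoq, a defining adipocyte gene, had 0.07 and 3.08 FPKM in Cdk8Tg, against 0.31 and 0.06 FPKM in WT. The 5 atrial markers summed to 861 and 2416 FPKM in Cdk8Tg, against 670 and 225 FPKM in WT, with 1 of 4 tested called (Nppa, higher). Nppa alone had 780 and 2072 FPKM in Cdk8Tg, and Myl4 (281 FPKM) was also highest in Cdk8Tg replicate 2. Myl7 (136 FPKM) and Sln (43.8 FPKM) were highest in WT replicate 1. The 5 markers of smooth muscle and pericytes, with no call, summed to 532 and 730 FPKM in Cdk8Tg, against 483 and 496 FPKM in WT. Of these, Acta2 had 317 and 513 FPKM and Myh11 had 10.3 and 25.5 FPKM in Cdk8Tg. Rgs5 (153 FPKM) and Kcnj8 (18.9 FPKM) were lowest in Cdk8Tg replicate 2. The part of these cells in the Gpx3 level was not tested. Fibroblast markers, like the peroxidases of the endoplasmic reticulum, were higher in Cdk8Tg. Of 6, 5 were called higher and 0 lower, where 16.9% of all tested rows were higher. Their sums were 741 and 979 FPKM in Cdk8Tg and 595 and 562 FPKM in WT. Between the same Cdk8Tg libraries Gpx7 (13.7 and 13.8 FPKM) and Gpx8 (39.5 and 42.5 FPKM) differed less. The part of fibroblasts in the results was not tested. In bulk tissue, fewer cells of a type and less RNA per cell cannot be told apart.

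**Figure D2:**
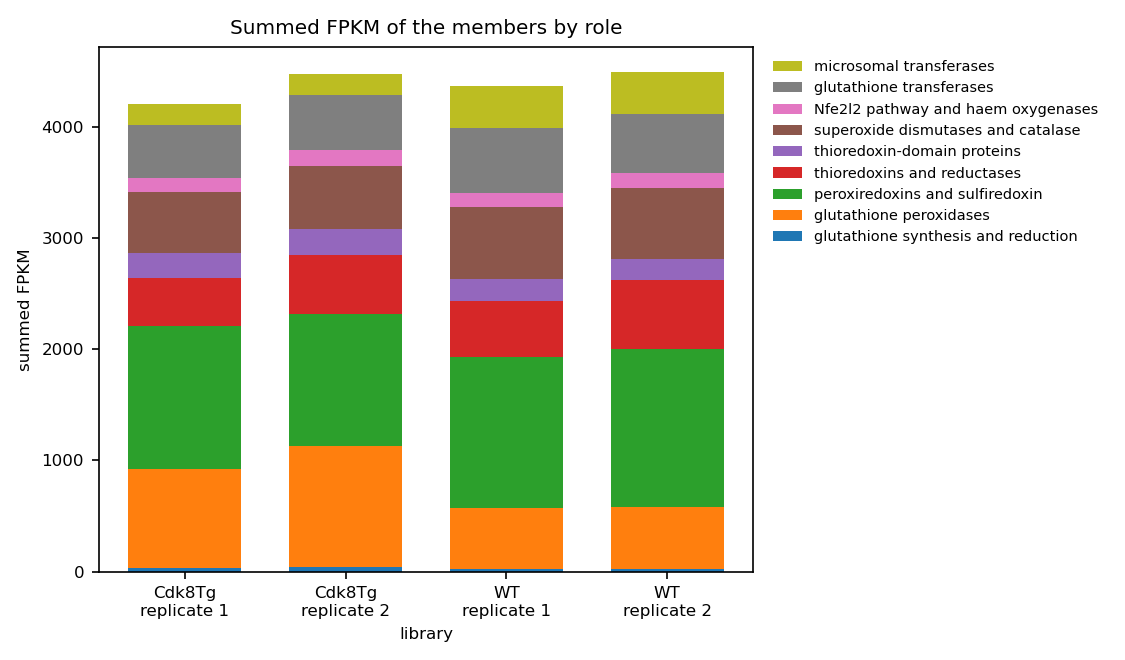
Summed FPKM of the members in each library, stacked by role, with the Cdk8Tg libraries on the left. The totals are 4210 and 4479 FPKM in Cdk8Tg and 4366 and 4494 FPKM in WT, and within them the peroxidase layer is thicker and the microsomal transferase layer thinner in Cdk8Tg.

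The peroxiredoxins went both ways. Prdx1, the stress-inducible cytosolic peroxiredoxin, stood at 291 and 316 FPKM in Cdk8Tg, against 220 and 210 FPKM in WT, and rose by 0.49 ± 0.09 on the log2 scale (SE; limma adjusted p = 0.019). Srxn1, the sulfiredoxin that restores over-oxidised peroxiredoxins, stood at 8.47 and 11.2 FPKM in Cdk8Tg, against 5.97 and 5.21 FPKM in WT, and rose by 0.71 ± 0.15 (limma adjusted p = 0.026). Both are known targets of Nfe2l2. Prdx2, the cytosolic peroxiredoxin that is abundant in red blood cells, stood at 325 and 269 FPKM in Cdk8Tg, against 398 and 435 FPKM in WT. It fell by 0.49 ± 0.12 (limma adjusted p = 0.039). Prdx5, found in mitochondria, peroxisomes and cytosol, stood at 346 and 287 FPKM in Cdk8Tg, against 432 and 443 FPKM in WT, and fell by 0.47 ± 0.12 (limma adjusted p = 0.039). In each of these 4 genes the groups did not overlap. Erythroid markers, which bear on Prdx2, showed no call in 5 measured genes. They summed to 4526 and 2637 FPKM in Cdk8Tg and to 4303 and 6712 FPKM in WT, so the Cdk8Tg library with the lower Prdx2 level also had the lower erythroid sum, and likewise in WT. The part of red cells in the Prdx2 result was not tested.

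The other 3 tested peroxiredoxins were not called. Prdx3, the mitochondrial form, stood at 208 and 185 FPKM in Cdk8Tg and 200 and 229 FPKM in WT, with overlapping groups (log2 change -0.13, 95% interval -0.40 to 0.15; limma adjusted p = 0.42). Prdx4, of the secretory pathway, and Prdx6, which uses glutathione and also repairs membrane lipids, each had a log2 change of 0.16 (limma adjusted p = 0.22 and 0.16). Prdx2 and Prdx5 lost their calls on the equal-sum scale (log2 changes -0.29 and -0.27; limma adjusted p = 0.085 and 0.087) and with quantile normalization (-0.21 and -0.18; adjusted p = 0.25 and 0.24), the second of which also ended the call of Srxn1 (0.57; adjusted p = 0.052). Without Cdk8Tg replicate 2 the same pair (-0.35 and -0.34; limma adjusted p = 0.078 and 0.067) and Srxn1 (0.52; adjusted p = 0.073) were not called. Without WT replicate 1 or WT replicate 2 none of the 4 genes was called. Their log2 changes were 0.53 and 0.46 for Prdx1, -0.55 and -0.43 for Prdx2, -0.49 and -0.45 for Prdx5, and 0.79 and 0.62 for Srxn1, with limma adjusted p between 0.085 and 0.21. Exons of Prdx5 overlap Trmt112 and those of Prdx2 overlap Junb and Rnaseh2a, each on the opposite strand.

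The thioredoxin reductases split between cytosol and mitochondria. Txnrd1, the cytosolic reductase, stood at 23.5 and 22.7 FPKM in Cdk8Tg, against 14.2 and 13.9 FPKM in WT, and rose by 0.68 ± 0.08 on the log2 scale (SE; limma adjusted p = 0.0075). Txnrd2, the mitochondrial reductase, stood at 13.1 and 12.9 FPKM in Cdk8Tg, against 16.0 and 17.5 FPKM in WT, and fell by 0.34 ± 0.09 (limma adjusted p = 0.043). It kept its call in 6 of 15 other settings, lost it without a variance trend (limma adjusted p = 0.057) and had q = 0.48 in the authors' deposited table. The order of the pair by FPKM differed between the groups: Txnrd1 had the higher FPKM in both Cdk8Tg libraries and the lower in both WT libraries. The FPKM ratio of Txnrd1 to Txnrd2 within a library was 1.79 and 1.77 in Cdk8Tg, against 0.885 and 0.793 in WT, and such a ratio does not depend on how a library was scaled. Txn2, the mitochondrial thioredoxin, stood at 152 and 137 FPKM in Cdk8Tg, against 191 and 187 FPKM in WT, and fell by 0.39 ± 0.09 (limma adjusted p = 0.035). Txn1, the cytosolic thioredoxin, stood at 74.0 and 88.6 FPKM in Cdk8Tg and 74.8 and 71.7 FPKM in WT. Its groups overlapped and it was not called (log2 change 0.14, 95% interval -0.13 to 0.42; limma adjusted p = 0.36). Txnrd3, a reductase known mainly from testis, had a log2 change of -0.14 (limma adjusted p = 0.33).

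Txnip, which binds and inhibits thioredoxin, had the highest mean of this role and varied widely within both groups. It stood at 165 and 267 FPKM in Cdk8Tg and 206 and 322 FPKM in WT (log2 change -0.29, 95% interval -1.03 to 0.44; limma adjusted p = 0.48). The falls of Txn2 and Txnrd2 were not called on the equal-sum scale (log2 changes -0.19 and -0.16; limma adjusted p = 0.12 and 0.19). They were also lost without Cdk8Tg replicate 2 (-0.31 and -0.33; limma adjusted p = 0.083 and 0.13), without WT replicate 1 (-0.37 and -0.40; adjusted p = 0.16 and 0.11) and on leaving out WT replicate 2 (-0.40 and -0.28; adjusted p = 0.16 and 0.21). Txnrd2 was lost without Cdk8Tg replicate 1 too (-0.36; limma adjusted p = 0.093), and Txnrd1 without WT replicate 2 (0.67; adjusted p = 0.063). Txn2 was lost with quantile normalization (-0.34; limma adjusted p = 0.053).

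Among the other proteins with a thioredoxin domain, 2 of 10 tested genes were called, both higher, where 24.9% of all tested rows were called. Both encode proteins of the endoplasmic reticulum, while Txndc11 and Txndc16 of the same compartment were not called (log2 changes 0.15 and 0.25; limma adjusted p = 0.45 and 0.16). Txndc12 stood at 31.7 and 32.5 FPKM in Cdk8Tg, against 22.5 and 18.1 FPKM in WT, and rose by 0.64 ± 0.12 (SE; limma adjusted p = 0.020). Txndc5, a protein disulfide isomerase, stood at 30.3 and 36.9 FPKM in Cdk8Tg, against 23.1 and 23.1 FPKM in WT, and rose by 0.52 ± 0.11 (limma adjusted p = 0.029). The groups did not overlap for either gene. Txnl4a, a component of the spliceosome and the highest of these genes, stood at 44.9 and 43.2 FPKM in Cdk8Tg and 41.1 and 40.7 FPKM in WT (log2 change 0.10; limma adjusted p = 0.34). The other 7 ranged from -0.05 (Txndc15) to 0.30 (Txndc17). Txndc5 was no longer called after median-of-ratios scaling (log2 change 0.37; limma adjusted p = 0.063), with quantile normalization (0.44; adjusted p = 0.052) and on leaving out WT replicate 1 (0.52; adjusted p = 0.12). Txndc12 and Txndc5 were both lost without Cdk8Tg replicate 2 (0.62 and 0.38; limma adjusted p = 0.066 and 0.075) and on leaving out WT replicate 2 (0.49 and 0.51; adjusted p = 0.092 and 0.14). Exons of Txndc5 overlap Bmp6 on the opposite strand. The fibroblast marker sums given beside Gpx7 and Gpx8 were higher in both Cdk8Tg libraries as well, and their part in this pair was not tested.

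Of the superoxide dismutases and catalase, Sod2 was called. Sod2, the manganese enzyme of the mitochondrial matrix, stood at 117 and 99.4 FPKM in Cdk8Tg, against 167 and 161 FPKM in WT. Its means were 108 ± 12.4 FPKM in Cdk8Tg and 164 ± 3.94 FPKM in WT (SD, n = 2 each), a fall of 0.60 ± 0.10 on the log2 scale (SE; limma adjusted p = 0.017). Both Cdk8Tg libraries lay below both WT libraries. The call was lost without WT replicate 1 (-0.58; limma adjusted p = 0.096) and WT replicate 2 (-0.62; adjusted p = 0.099), and 26.7% of the 31-base stretches of Sod2 occur in another annotated gene. Sod1, the copper-zinc enzyme of the cytosol, had the highest FPKM of this role. It stood at 345 and 361 FPKM in Cdk8Tg and 395 and 386 FPKM in WT, a log2 change of -0.15 (95% interval -0.36 to 0.07; limma adjusted p = 0.25). This sign turned with quantile normalization (0.14) and on the equal-sum scale (0.051). Sod3, the extracellular enzyme, stood at 11.7 and 17.9 FPKM in Cdk8Tg and 10.7 and 9.66 FPKM in WT (log2 change 0.47, 95% interval -0.02 to 0.96; limma adjusted p = 0.13). It was called without Cdk8Tg replicate 1 (0.76; limma adjusted p = 0.020) and on the equal-sum scale (0.65; adjusted p = 0.047), and moved to 0.18 without Cdk8Tg replicate 2 (adjusted p = 0.35). Catalase (Cat), the peroxisomal enzyme that splits hydrogen peroxide, stood at 73.6 and 83.9 FPKM in Cdk8Tg and 78.4 and 79.3 FPKM in WT. Its groups overlapped, and its log2 change was -0.01 (95% interval -0.24 to 0.23; limma adjusted p = 0.97), an interval that leaves out a change as large as that of Sod2.

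Of the members described here as mitochondrial, Sod2, Prdx5, Txn2, Txnrd2 and Gstk1 were lower, Prdx3 was not called and Gpx1, which the cytosol also holds, was higher. These genes were brought together after their values were seen, so the group is a description, and it is not complete. Left out were Gpx4 (higher, log2 change 0.51), Gsr (not called, 0.18) and Mgst1 (not called, 0.41), which are known from mitochondria as well as other sites. A list of 16 genes of mitochondrial enzymes and respiratory chain subunits was set beside them. Of its 16 tested genes, 1 was higher and 8 were lower, with a median of -0.45, where 7.98% of all tested rows were lower, and after median-of-ratios scaling 0 were higher and 12 lower. Quantile normalization left 1 higher and 3 lower, leaving out Cdk8Tg replicate 1 gave 13 lower, and leaving out WT replicate 1 or WT replicate 2 gave 0 in both directions. Cardiomyocyte markers were lower as well, 5 of 6, where 7.98% of all tested rows were lower. They summed to 23545 and 21296 FPKM in Cdk8Tg and 34935 and 32944 FPKM in WT. Their part in the lower mitochondrial members was not tested. Of those members, Prdx5, Txn2 and Txnrd2 were not called on the equal-sum scale.

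The genes of the Nfe2l2 switch were not called, and Nqo1 was. Nqo1, a quinone reductase and a classical Nfe2l2 target, stood at 31.1 and 50.5 FPKM in Cdk8Tg, against 20.3 and 21.5 FPKM in WT. Its means were 40.8 ± 13.7 FPKM in Cdk8Tg and 20.9 ± 0.863 FPKM in WT (SD, n = 2 each), a rise of 0.90 ± 0.22 on the log2 scale (SE; limma adjusted p = 0.039). As for Gpx3, Cdk8Tg replicate 2 stood above replicate 1, and without replicate 2 the log2 change was 0.56. That library had the highest marker sums of adipocytes, atrial cells, fibroblasts, and smooth muscle and pericytes. The part of any of these cells in the Nqo1 level was not tested. The call of Nqo1 was lost after median-of-ratios scaling (0.75; limma adjusted p = 0.060), with quantile normalization (0.82; adjusted p = 0.063), without WT replicate 1 (0.86; adjusted p = 0.14) and on leaving out WT replicate 2 (0.94; adjusted p = 0.14). Nfe2l2 stood at 37.8 and 43.7 FPKM in Cdk8Tg and 40.6 and 46.1 FPKM in WT, with overlapping groups (log2 change -0.09, 95% interval -0.36 to 0.19; limma adjusted p = 0.58). Keap1, its inhibitor, stood at 14.5 and 12.8 FPKM in Cdk8Tg and 16.0 and 16.7 FPKM in WT (log2 change -0.25, 95% interval -0.48 to -0.01; limma adjusted p = 0.11). These are transcript levels, whereas Nfe2l2 is known to be controlled mainly through the stability of its protein, which was not measured.

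Haem oxygenases break haem down to biliverdin, iron and carbon monoxide. Hmox1, the inducible form and another Nfe2l2 target, stood at 7.70 and 10.6 FPKM in Cdk8Tg and 6.93 and 8.45 FPKM in WT. Its groups overlapped (log2 change 0.21, 95% interval -0.21 to 0.63; limma adjusted p = 0.38). Hmox2, the constitutive form, stood at 35.3 and 30.4 FPKM in Cdk8Tg and 39.7 and 39.7 FPKM in WT (log2 change -0.27, 95% interval -0.51 to -0.02; limma adjusted p = 0.098). Of its 31-base stretches, 46.0% occur in another annotated gene on either strand, chiefly Cdip1, whose exons overlap those of Hmox2 on the opposite strand.

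Glutathione transferases, which join glutathione to electrophiles, held the members with the largest falls. Mgst3, a microsomal transferase that also reduces lipid hydroperoxides, stood at 178 and 174 FPKM in Cdk8Tg, against 358 and 368 FPKM in WT. Its means were 176 ± 2.90 FPKM in Cdk8Tg and 363 ± 6.74 FPKM in WT (SD, n = 2 each), a ratio of 0.485 and a fall of 1.04 ± 0.08 on the log2 scale (SE; limma adjusted p = 0.0038). Replicates lay within a few percent of each other, and Mgst3 was the only one of the 24 called members to keep its call in all 15 settings tried (log2 change -1.20 to -0.84, adjusted p 0.00086 to 0.046). Gstk1, the kappa-class enzyme of mitochondria and peroxisomes, stood at 31.7 and 21.5 FPKM in Cdk8Tg, against 62.7 and 55.8 FPKM in WT, and fell by 1.15 ± 0.19 (limma adjusted p = 0.015). Gstm7, of the mu class, stood at 12.6 and 10.4 FPKM in Cdk8Tg, against 28.7 and 24.3 FPKM in WT, and fell by 1.14 ± 0.13 (limma adjusted p = 0.0071). The groups lay apart in each of these 3 genes.

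Smaller falls were called for Gstm1 and Gstz1, and a rise for Gstm4. Gstm1 stood at 67.9 and 80.9 FPKM in Cdk8Tg, against 110 and 95.3 FPKM in WT, and fell by 0.46 ± 0.12 (limma adjusted p = 0.047). Of its 31-base stretches, 28.8% occur in another annotated gene, chiefly Gstm2-ps1. Gstz1, which also serves tyrosine breakdown as maleylacetoacetate isomerase, stood at 21.1 and 20.0 FPKM in Cdk8Tg, against 26.3 and 25.5 FPKM in WT, and fell by 0.32 ± 0.08 (limma adjusted p = 0.042). Gstm4 stood at 10.5 and 11.1 FPKM in Cdk8Tg, against 5.86 and 6.91 FPKM in WT, and rose by 0.68 ± 0.11 (limma adjusted p = 0.014). The mu-class genes lie side by side on chromosome 3 (GRCm38), in the order Gstm5, Gstm7, Gstm6, Gstm3, Gstm2, Gstm1 and Gstm4. Gstm7 spans chr3:107926334-107931817 and Gstm4 spans chr3:108040408-108044894, both on the - strand. Along this row the log2 changes were 0.26, -1.14, 0.15, not tested, 0.35, -0.46 and 0.68, so neighbours differed in sign. Of the 31-base stretches of Gstm7 and Gstm4, 2.6% and 3.3% occur in any other annotated gene. The FPKM ratio of Gstm4 to Gstm7 was 0.835 and 1.06 in Cdk8Tg, against 0.204 and 0.284 in WT.

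The remaining 11 tested soluble transferases were not called. Gsto1, of the omega class and with the highest mean FPKM over the 4 libraries among the soluble transferases (in WT, Gstm1 was higher), stood at 72.5 and 92.7 FPKM in Cdk8Tg and 96.3 and 100.1 FPKM in WT (log2 change -0.26; limma adjusted p = 0.19). Gsta3 varied widely within both groups, with 1.87 and 6.23 FPKM in Cdk8Tg and 3.89 and 11.0 FPKM in WT. Its log2 change of -0.75 (95% interval -2.17 to 0.67) was not called by limma (adjusted p = 0.36), while the authors' deposited table called it lower (q = 0.010). The other 9 changed by -0.33 (Gstt1) to 0.35 (Gstm2). Gstp1 and Gstp2 share 31-base stretches, 38.5% of those of Gstp1 and 60.3% of those of Gstp2, so their split is uncertain. Mgst1, the microsomal form best known from liver, stood at 15.7 and 22.2 FPKM in Cdk8Tg and 14.9 and 12.9 FPKM in WT (log2 change 0.41; limma adjusted p = 0.14).

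Gstk1 lost its call without WT replicate 1 (log2 change -1.07; limma adjusted p = 0.078) and WT replicate 2 (-1.23; adjusted p = 0.080). Gstm4 lost it without Cdk8Tg replicate 2 (0.65; limma adjusted p = 0.054), WT replicate 1 (0.58; adjusted p = 0.070) and WT replicate 2 (0.78; adjusted p = 0.058). Gstm1 and Gstz1 were not called on the equal-sum scale (-0.26 and -0.13; limma adjusted p = 0.14 and 0.22) nor without Cdk8Tg replicate 1 (-0.33 and -0.35; adjusted p = 0.11 and 0.069). Without WT replicate 1 (-0.36 and -0.30; limma adjusted p = 0.20 and 0.17) or WT replicate 2 (-0.56 and -0.34; adjusted p = 0.12 and 0.16) they were lost as well, and Gstz1 also without Cdk8Tg replicate 2 (-0.28; adjusted p = 0.13). Quantile normalization ended the call of Gstm1 (-0.44; limma adjusted p = 0.057). Gstm7 kept its call without each library in turn.

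**Figure D3:**
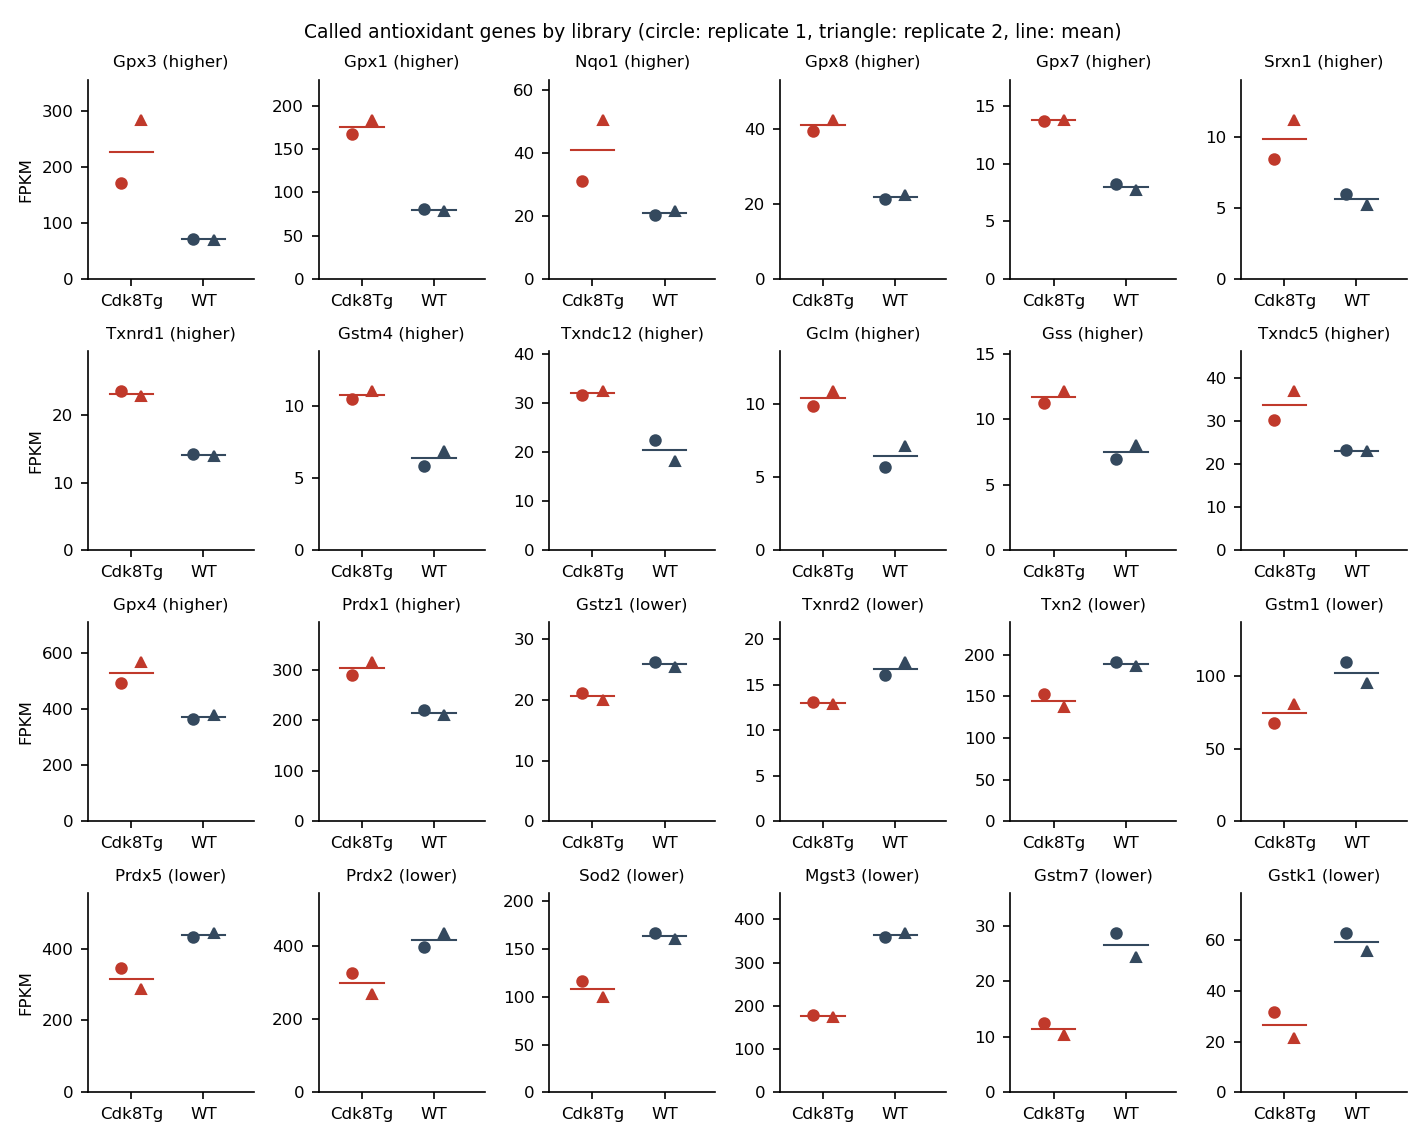
FPKM of the 24 called members in each library (circle, replicate 1; triangle, replicate 2; line, group mean), with Cdk8Tg left of WT and each axis starting at 0. In every panel both Cdk8Tg points lie on the same side of both WT points, and Gpx3 and Nqo1 show the wide gap between the Cdk8Tg replicates.

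Ratios within a library set partner genes against each other without the scaling between libraries. Prdx1 over Prdx2 was 0.895 and 1.17 in Cdk8Tg, against 0.553 and 0.484 in WT. Txn1 over Txn2, the cytosolic over the mitochondrial thioredoxin, was 0.485 and 0.648 in Cdk8Tg, against 0.391 and 0.384 in WT. Sod1 over Sod2 was 2.95 and 3.63 in Cdk8Tg, against 2.37 and 2.39 in WT. For these 3 pairs of enzymes the ratio was thus higher in both Cdk8Tg libraries. Within the peroxidases, Gpx1 over Gpx4 was 0.340 and 0.323 in Cdk8Tg, against 0.223 and 0.206 in WT. Gpx3 over Gpx4 was 0.346 and 0.500 in Cdk8Tg, against 0.198 and 0.183 in WT. Mgst1 over Mgst3 was 0.0884 and 0.128 in Cdk8Tg, against 0.0415 and 0.0352 in WT. The ratio of Gclc over Gclm, the subunits of glutamate-cysteine ligase, overlapped between the groups, with 0.623 and 0.864 in Cdk8Tg and 0.729 and 0.691 in WT. A ratio shows that partners changed unequally, not which of them changed. Where the upper gene was higher and the lower gene lower without overlap, as for Prdx1 over Prdx2, the ratio had to separate the groups. The same holds for Txnrd1 over Txnrd2 and Gstm4 over Gstm7, so these ratios add no support to the calls.

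**Figure D4:**
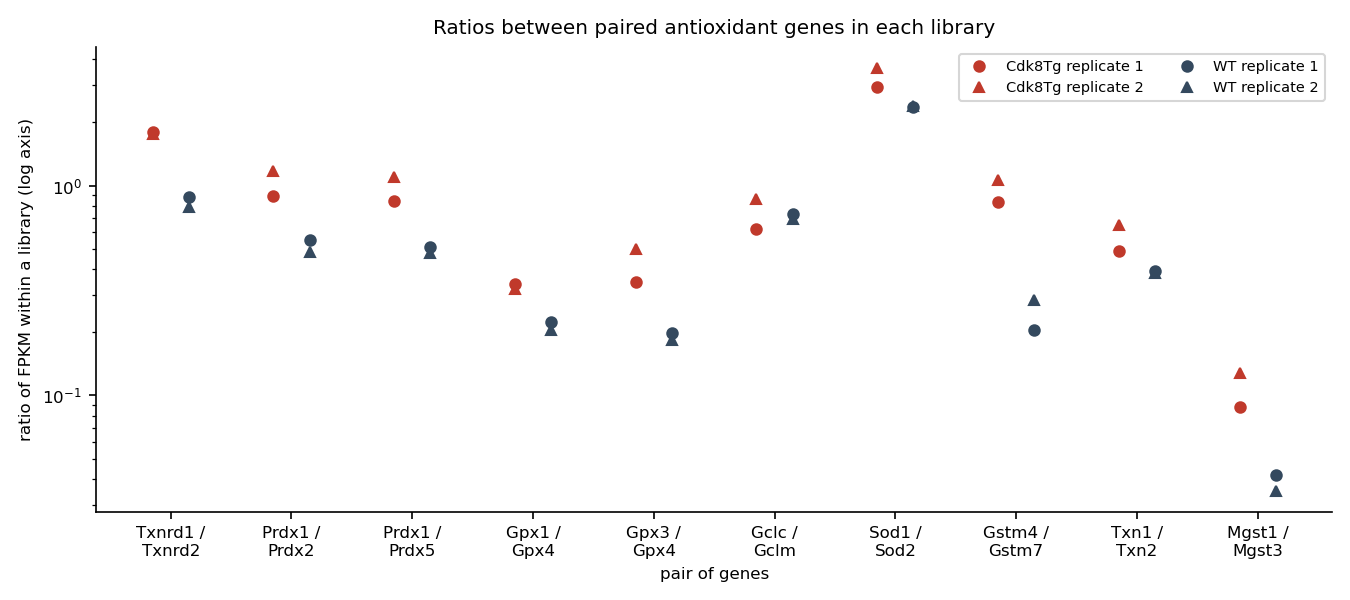
Ratio of FPKM between paired genes within each library on a log axis, Cdk8Tg left of WT for each of 10 pairs. The Cdk8Tg points lie above the WT points in 9 pairs and overlap them for Gclc over Gclm, with the widest step for Gstm4 over Gstm7 (0.835 and 1.06 against 0.204 and 0.284). Pairs of a called higher gene over a called lower gene had to separate.

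The antioxidant response element is known to hold the core TGACNNNGC, to which Nfe2l2 binds with a small Maf protein. It was searched on both strands in promoters from RefSeq (GRCm38.p6), each a window of 250 bases before to 50 after a start site. Promoters were held for 61 of the 72 members, 81 in all, and 13 of these (16.0%) had the core, against 4071 of 32851 promoters of all genes (12.4%). Among the 14 higher members, 5 of 22 promoters had it: those of Srxn1, Gclm, Prdx1, Txndc5 and 1 of the promoters of Txnrd1. Among the 10 lower members it was 1 of 13 (Gstm7), and among those not called 6 of 33. Stretches of 3 promoters of higher members are shown, from 190 to 71 bases before the start site, with the core in capitals. In all 3 it reads as its reverse complement on the printed strand, which is the + strand.
Gclm: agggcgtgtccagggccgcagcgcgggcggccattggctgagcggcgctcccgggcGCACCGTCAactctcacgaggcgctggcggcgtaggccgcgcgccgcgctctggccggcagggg
Prdx1: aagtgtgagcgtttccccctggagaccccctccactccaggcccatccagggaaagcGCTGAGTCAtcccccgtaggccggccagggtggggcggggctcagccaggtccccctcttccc
Txnrd1: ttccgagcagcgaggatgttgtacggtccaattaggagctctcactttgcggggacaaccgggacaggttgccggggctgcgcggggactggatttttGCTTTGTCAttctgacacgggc
They lie at chr3:122245367-122245486 (Gclm), chr4:116685409-116685528 (Prdx1) and chr10:82859016-82859135 (Txnrd1). A match is a string of letters and was not measured as a binding site, and a window without one says nothing of elements elsewhere.

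Lists of genes around the members were counted in the same fit, and differences between lists were not tested. Of 21 tested genes of Nfe2l2-linked detoxification that are not members, 6 (28.6%) were higher and 0 lower, with a median log2 change of 0.46. Akr1b3, the aldose reductase, stood at 28.4 and 23.2 FPKM in Cdk8Tg, against 11.9 and 9.21 FPKM in WT, and rose by 1.22 ± 0.15 (SE; limma adjusted p = 0.0087). The aldehyde reductase Akr1a1 rose by 0.61, the epoxide hydrolase Ephx1 by 0.78 and pirin (Pir) by 0.86. Among 19 tested regulators of Nfe2l2, 5 (26.3%) were higher and 0 lower (median 0.16), where 16.9% of all tested rows were higher. Dpp3, a peptidase that binds Keap1, rose by 0.86, the small heat shock protein Hspb1 by 1.11, the phosphatase Pgam5 by 0.40 and the kinase Gsk3b, which promotes Nfe2l2 breakdown, by 0.38. After median-of-ratios scaling the counts were 4 higher and 1 lower for detoxification and 2 and 0 for the regulators. On that scale 7.96% of all tested rows were higher and 11.7% lower. With equal sums they were 9 and 0, and 7 and 0, where 5552 of 11888 rows were called in either direction. Mafg and Sqstm1 belong to both lists.

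Of 18 tested genes of selenoprotein synthesis and other selenoproteins, 8 (44.4%) were higher and 0 lower (median 0.31), where 16.9% of all tested rows were higher. The counts were 4 and 1 after median-of-ratios scaling, where 7.96% of all tested rows were higher and 11.7% lower. They were 13 and 0 on the equal-sum scale, where 5552 of 11888 rows were called in either direction. Scly, which frees selenium from selenocysteine, rose by 0.60, and Sepsecs, which makes the selenocysteine carried by its tRNA, by 0.56. The selenoprotein Selm rose by 0.84. Dio2, the deiodinase that activates thyroid hormone, stood at 1.43 and 3.05 FPKM in Cdk8Tg, against 0.36 and 0.24 FPKM in WT, and rose by 1.27 (limma adjusted p = 0.025). Its WT mean of 0.302 FPKM was under the filter of 1 FPKM, so it was tested only through its Cdk8Tg level. In the repair of oxidised protein and DNA, 3 of 13 tested genes (23.1%) were higher and 1 (7.69%) was lower (median 0.19), where 16.9% and 7.98% of all tested rows were. After median-of-ratios scaling the counts were 0 and 1. Lower on the deposited scale was Sesn1, a stress-induced sestrin, at 40.5 and 44.3 FPKM in Cdk8Tg and 71.7 and 115 FPKM in WT, a fall of 1.08 (limma adjusted p = 0.025). Sesn2 rose by 0.64, Sesn3 by 0.44 and Pcmt1, which repairs damaged aspartate residues, by 0.28.

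Supply and use of glutathione and NADPH moved both ways. Among 19 tested genes of glutathione handling, 2 (10.5%) were higher and 4 (21.1%) lower (median 0.05), where 16.9% and 7.98% of all tested rows were. Chac1, which degrades glutathione and is induced by the integrated stress response, stood at 0.645 and 0.722 FPKM in Cdk8Tg, against 5.69 and 8.58 FPKM in WT. It fell by 2.25 ± 0.19 on the log2 scale (SE; limma adjusted p = 0.0042). As its Cdk8Tg mean was 0.683 FPKM, Chac1 passed the filter of 1 FPKM only through WT. The transporters Abcc1 and Abcc5 went opposite ways, with a fall of 0.57 and a rise of 0.80, and Esd, which hydrolyses S-formylglutathione, rose by 0.48. Of 17 tested genes of NADPH supply, 3 (17.6%) were higher and 4 (23.5%) lower (median 0.02), to be read against the same shares. The malic enzyme gene Me2 stood at 10.2 and 9.03 FPKM in Cdk8Tg, against 4.29 and 3.67 FPKM in WT, and rose by 1.09 ± 0.11 (limma adjusted p = 0.0063), and Pgd of the pentose phosphate pathway rose by 0.48. Among genes of this list known from mitochondria, Mthfd2 rose by 1.02, as did Me2 by the value above. Me3 and Nadkd1 were called lower, with falls of 0.46 and 0.44, as were the next 2 genes. How much NADPH any of these enzymes supplied was not measured. Nnt, the mitochondrial transhydrogenase, stood at 162 and 144 FPKM in Cdk8Tg, against 266 and 253 FPKM in WT, and fell by 0.76 ± 0.10 (limma adjusted p = 0.0087). Idh2, the mitochondrial isocitrate dehydrogenase, stood at 497 and 446 FPKM in Cdk8Tg, against 856 and 843 FPKM in WT, and fell by 0.85 (limma adjusted p = 0.0075). After median-of-ratios scaling these lists had 2 higher and 5 lower, and 3 higher and 6 lower, where 7.96% of all tested rows were higher and 11.7% lower.

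Sources of oxidants held 0 higher and 2 lower genes of 14 tested (median -0.30), 14.3% lower against 7.98% of all tested rows, a gap of about 1 gene. Prodh, the mitochondrial proline dehydrogenase, stood at 7.53 and 7.46 FPKM in Cdk8Tg, against 16.5 and 20.0 FPKM in WT, and fell by 1.18 ± 0.11 (SE; limma adjusted p = 0.0054). The monoamine oxidase gene Maob fell by 0.35. Cyba and Cybb, subunits of the phagocyte NADPH oxidase, changed by -0.37 and -0.33 without a call (limma adjusted p = 0.074 and 0.088). Markers of macrophages and leukocytes, which express this oxidase, were lower in 3 of 8 and higher in 0, with sums of 82.1 and 107 FPKM in Cdk8Tg and 140 and 138 FPKM in WT. Among genes of metal binding, 3 of 10 tested (30%) were higher and 1 (10%) was lower (median 0.20), where 16.9% and 7.98% of all tested rows were. Metallothioneins did not all move alike: Mt1 stood at 81.3 and 112 FPKM in Cdk8Tg, against 222 and 303 FPKM in WT, and fell by 1.43 ± 0.21 (limma adjusted p = 0.012). Mt2 stood at 7.69 and 25.3 FPKM in Cdk8Tg and 35.5 and 46.5 FPKM in WT, without a call (log2 change -1.46; limma adjusted p = 0.086). Mt3, best known from brain, stood at 6.21 and 8.80 FPKM in Cdk8Tg, against 0.724 and 1.08 FPKM in WT, and rose by 2.15 ± 0.19 (limma adjusted p = 0.0044). As its WT mean was 0.900 FPKM, Mt3 passed the filter of 1 FPKM only through Cdk8Tg. The copper chaperones Atox1 and Ccs, the second of which loads Sod1, rose by 0.51 and 0.42. These counts, too, hung on single libraries. Without WT replicate 1 or WT replicate 2, each of these 8 lists had 0 or 1 call in each direction. Without Cdk8Tg replicate 2, there were 3 higher genes in detoxification, 2 among the regulators, 3 in selenoprotein synthesis and 0 in repair. That fit also left 0 higher and 2 lower in glutathione handling, 1 and 2 in NADPH supply, 0 and 1 among oxidant sources, and 2 and 3 in metal binding. Without Cdk8Tg replicate 1, 5 genes were higher in NADPH supply, 2 among the regulators, 5 in selenoprotein synthesis and 1 in repair, and 1 was lower among oxidant sources and 0 in repair.

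The main genes lie as follows on GRCm38, in the GENCODE annotation, all of them protein-coding. Gpx1 spans chr9:108338903-108340343, Gpx3 spans chr11:54902453-54910377 and Gpx4 spans chr10:80047166-80056439, each on the + strand. Txnrd1 spans chr10:82833951-82897712, Txnrd2 spans chr16:18426384-18479073, Sod2 spans chr17:13006846-13040063 and Gstk1 spans chr6:42245935-42250447, also on the + strand. Mgst3 spans chr1:167371966-167393841 and Nqo1 spans chr8:107388225-107403206, both on the - strand.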

How the data were processed

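Polyadenylated RNA of frozen ventricles was sequenced from stranded TruSeq libraries, per the labels' protocols. Per the submitters' processing notes, the authors aligned reads with TopHat (1.0.0, the alignment app) to mm10 and used Cufflinks and Cuffdiff. Not given in the sources used here are the versions of these 2 programs, the annotation, the strand setting and the scaling between libraries. The deposited values are FPKM per gene and library, and a second deposited table holds the authors' p-values and q-values per gene.

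FPKM are not counts, so limma 3.58.1 (R 4.3.3) was fitted to log2(FPKM + 1) with a variance trend, no covariates and 2 residual degrees of freedom, over the 11888 of 23847 rows with a mean of at least 1 FPKM. Two-sided p-values were adjusted by Benjamini-Hochberg over all of them and called under 0.05. Changes are Cdk8Tg minus WT. The fit was tested on simulated data.

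Groups and replicate numbers came from sample titles, and the labels give no batch. The log2 values of replicates correlated at 0.980 in Cdk8Tg and 0.988 in WT, across genes, which are not independent replicates. Library sums were 448495 and 440324 FPKM in Cdk8Tg and 510844 and 508247 FPKM in WT. Depth was read from steps between low FPKM values in 322 to 346 genes per library, and no read counts were used.

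Named were all called members, the highest of each role, a fixed set of core genes and up to 4 genes per pathway list by smallest p. Cyba, Cybb, Mthfd2, Me3, Nadkd1, Mt2, single cell type markers, the remaining uncalled members and the mitochondrial grouping were chosen after their values were seen. Members, lists, gene pairs for ratios and tests were chosen with earlier results of these data known. Alternatives were other pseudocounts, filters, scalings and variance models, a replicate block, a minimum change, the authors' calls and leaving out each library. Shared stretches are 31-base words of a gene's GENCODE transcripts found in any other gene's, read on either strand. Promoters are from RefSeq (GRCm38.p6).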

Additional observations from a re-analysis of the deposited data

How the results depend on the processing

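As deposited, 2958 rows, 14 higher and 10 lower members were called. Counts of all rows, higher members and lower members moved with no filter on low values (279, 1 and 1, which were Txnrd1 and Mgst3), on the equal-sum scale (5552, 28 and 4) and with a minimum log2 change of 1 (414, 2 and 3). The authors' deposited calls were 1730, 7 and 9, and quantile normalization gave 2031, 10 and 6. Leaving out each library gave 287 to 2380 rows, 2 to 17 higher members and 2 to 7 lower members. Median-of-ratios scaling gave 2331, 11 and 11, and no variance trend 2658, 14 and 7 (lost were Gstm1, Gstz1 and Txnrd2). Pseudocounts of 0.1 and 5, a minimum of 5 FPKM and robust variance kept all 24 member calls. Same-numbered libraries did not deviate together (r = -0.026 over 11888 genes). With 2 libraries a group this check cannot show that they are unpaired, and the labels do not say. The replicate block gave 2825 rows, 15 higher and 7 lower members, and 20 of the 24 calls were kept (lost were Gstm1, Gstz1, Prdx2 and Txnrd2). Of the 24 called members, 0 changed sign in any setting. Among uncalled members, only the core set and the highest of each role were followed through all settings. Of these, signs turned for Cat (0.017 with quantile normalization, 0.19 on the equal-sum scale, -0.098 to 0.087 on leaving out each library) and Nfe2l2 (0.10 on the equal-sum scale, -0.19 to 0.015 on leaving out each library). They also turned for Sod1 (0.14 with quantile normalization, 0.051 on the equal-sum scale) and Txnip (-0.64 to 0.051 on leaving out each library). Txn1 (-0.0036) and Txnl4a (-0.040) turned after median-of-ratios scaling, and in the authors' deposited table (-0.0088 and -0.052). Of the members not followed, Txnl1 (0.11 by limma) and Gstp1 (0.045 by limma) turned in the authors' deposited table as well (-0.048 and -0.12). The cause of these turns was not tested. With 2 samples a group and FPKM without counts, small changes are not detectable, and no interval for counting error can be given.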
